A study of Mus musculus with 12 samples.

Results

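Protein phosphatase 2A (PP2A) was followed through 10 genes that encode its subunits, in the cortex of 12 female mice. The genes were Ppp2ca, Ppp2cb, Ppp2r1a, Ppp2r1b, Ppp2r2a, Ppp2r2b, Ppp2r2c, Ppp2r2d, Ppp2r5a and Ppp2r5c, taken by the gene name that the array gives its non-control probes. They were found among 29608 names on the array and were read by 16 probes. Of these, 14 probes and 9 genes passed the filter on dim spots that every mouse had to pass, as did 17302 genes in all. Ppp2r1b was the gene that did not pass, and its spots are described on their own. The family was chosen from a readout of these same arrays, the higher signal of Ppp2r2c in MRL/lpr than in MRL/+, a direction opposite to the one the study lists for that gene. Both mice of an array belonged to the same group. The cause of the opposite direction was not tested.

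The 3 groups were compared in pairs, with 4 mice each. MRL/lpr mice carry the lpr allele, a defect of the Fas death receptor, and develop a lupus-like disease. Fn14ko mice (Fn14koMRL in the labels) lack Fn14, the receptor of the cytokine TWEAK encoded by Tnfrsf12a, and were backcrossed littermates of the MRL/lpr mice, although the labels do not name their Fas genotype. MRL/+ mice (MRL/MpJ) are the control strain of the same background without the lpr allele, and were bought from another breeder than the one that raised the other groups. All were untreated adults of about 12 weeks in diestrus, and what they share beyond the MRL background is this age, sex and cycle stage. Tnfrsf12a was lowest in Fn14ko, at 0.694 ± 0.0786 times the channel median (SD, n = 4), against 1.68 ± 0.246 in MRL/lpr and 1.11 ± 0.152 in MRL/+, and the Fn14ko mice did not overlap either of the other groups.

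PP2A is a serine/threonine phosphatase built from a scaffold (A), a catalytic (C) and an exchangeable regulatory (B) subunit. The B subunit decides which substrates the enzyme meets. The B55 family (Ppp2r2 genes) and the B56 family (Ppp2r5 genes) are among the regulatory families, and B55-containing PP2A is a main tau phosphatase of neurons. B55 beta and B55 gamma, encoded by Ppp2r2b and Ppp2r2c, are known for their enrichment in brain. Array signals measure mRNA in a mixed tissue, where fewer cells of a type and less RNA per cell cannot be told apart.

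Since probes of a gene did not always move alike, the sequences read by the probes the results turn on are shown first. Each is the array's 60-base probe or a stretch of 30 bases of it, 5′ to 3′, in lower case. Capitals mark AATAAA, the hexamer of most polyadenylation signals. Probes of a gene are lettered by position, and coordinates are those of the array annotation (mm9), for which no exon annotation was used here. Ppp2r2c was read by 1 probe at chr5:37346000-37346059 on the plus strand. Ppp2r1a was read by 1 probe whose match runs over 894 bases, from chr17:21098695 to 21099588 on the plus strand, so it spans an intron. The probes of Ppp2r1b lie 12583 bases apart on the plus strand, probe a at chr9:50689663-50689722 for transcript variant 2 and probe b at chr9:50702246-50702305 for transcript variant 1. Those of Ppp2ca lie 5322 bases apart, at chr11:51935900-51935959 and chr11:51941222-51941280. The 3 of Ppp2r5c are at chr12:111799569-111799628, chr12:111809756-111809815 and chr12:111820692-111820751.
Ppp2r2c, bases 1 to 30: aagccacagactttgccactttactctgct
Ppp2r1a, whole probe: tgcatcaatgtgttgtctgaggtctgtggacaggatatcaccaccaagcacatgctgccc
Ppp2r1b probe a, bases 24 to 53: cactcactcgggAATAAAcctctaaagtgt
Ppp2r1b probe b, bases 1 to 30: ctgtgcaaacaacagattactagttacttt
Ppp2ca probe a, bases 1 to 30: ccctcttgttgtgtttctttcagggatacc
Ppp2ca probe b, bases 22 to 51: tatactgtactcAATAAActgtaaacaaat
Ppp2r5c probe a, whole probe: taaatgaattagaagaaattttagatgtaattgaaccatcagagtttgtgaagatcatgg
Ppp2r5c probe b, bases 1 to 30: ctctccagggaagaaaatatcttactaaac
Ppp2r5c probe c, bases 1 to 30: gattccccatgctaattgttcagcttgtat

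AATAAA stood in 4 of the 16 probes (Ppp2ca probe b, Ppp2cb, Ppp2r1b probe a and Ppp2r2d) and in 12.6% of the 39429 probes of the array. Its reverse complement TTTATT stood in 1 of the 16 and in 4.03% of all. A match describes the letters of the probe and is no mapped cleavage site. The GC content of the 16 probes ran from 28.3% for Ppp2r5c probe a to 51.7% for Ppp2r1a, around a median of 41.7% for the array.

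Before the members, the arrays themselves need a remark. Each group had a slide and a scan to itself, and in every comparison the slide cannot be told apart from the group. The MRL/+ mice read in Cy5 (replicates 2 and 4) stood apart, with 35% and 21.2% of spots well above background against 56.6% to 70% in the other 10 mice, and their negative control spots were 6.12 and 6.31 times as bright as the local background, where those of the other mice were 1.13 to 2.65 times as bright. Calls of members and of the pathway genes below that were lost without those mice are named beside the genes. Whether the calls of the markers in this paragraph held without those mice was not examined. The tissue carried its markers. All 5 excitatory and all 5 inhibitory neuron markers were measured in every mouse. The excitatory markers summed to 24 to 28.2 in MRL/lpr, 25.6 to 33.3 in Fn14ko and 29.2 to 45.2 in MRL/+, and of the 5, Slc17a7 and Neurod6 fell and Tbr1 rose in MRL/lpr against MRL/+ (-1.08 ± 0.22, -1.70 ± 0.38 and 1.53 ± 0.28 on the log2 scale). Of the inhibitory markers, Pvalb rose there (1.03 ± 0.27). The 5 endothelium markers summed to 13.1 to 16.4 for MRL/lpr against 7.99 to 10.6 for MRL/+, and Flt1 was the 1 called (1.07 ± 0.22). Cldn5 and Tek gave 0.80 and 0.31, while Pecam1 and Cdh5 gave -0.24 and -0.89, none past the threshold. Tek, Pecam1 and Cdh5 were dim, below the channel median in every mouse. Aif1 was the 1 called of the microglia markers (1.17 ± 0.31) and Mbp of the oligodendrocyte markers (-1.63 ± 0.35). The summed signal of 5 blood markers ran from 92.2 to 231 among MRL/lpr mice, from 33.7 to 95.8 among Fn14ko and from 25.9 to 47.4 among MRL/+. Nearly all of that sum was Hba-a1 (88.7 to 225, 32.1 to 91.4 and 22 to 41.3). Hba-a1 gave 2.37 ± 0.43 in MRL/lpr against MRL/+, past the threshold, and 1.04 ± 0.43 in Fn14ko against MRL/+, not past it. In the same order Alas2 gave 1.40 ± 0.48 and 0.51 ± 0.48, and Hbb-b1 gave 0.42 ± 0.40 and -1.02 ± 0.40, none past it. Ptprc and Cd3e gave -0.83 ± 0.36 and -0.27 ± 0.21 in MRL/lpr against MRL/+, neither past the threshold. Ptprc was dim, at 0.205 to 0.672 in MRL/+. The Ppp2r2cos probe described below, well above background in no mouse, had 0.0696 to 0.546 there. The 5 oligodendrocyte markers summed to 35.5 to 55.1 for MRL/lpr mice, to 52.1 to 65.1 for Fn14ko and to 49.2 to 58.6 for MRL/+, and the 5 choroid plexus markers varied widely within each group, from 6.24 to 96.8, from 11.9 to 173 and from 15.5 to 259. The 5 striatum markers reached 80.8 in a Fn14ko mouse, against at most 19.6 in MRL/lpr and 8.43 in MRL/+. Of 5 cerebellum markers, 2 (Gabra6 and Calb2) did not pass the filter. Their part in the results below was not tested.

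Ppp2ca, the alpha form of the catalytic subunit, was lowest in MRL/+. It had signals of 7.9, 9.13, 9.01 and 8.05 times the channel median in the 4 MRL/lpr mice, 8.91, 11.2, 9.33 and 10.9 in Fn14ko, and 6.86, 6.28, 6.92 and 4.04 in MRL/+. All MRL/+ mice lay below all mice of the other groups, while MRL/lpr and Fn14ko overlapped. In Fn14ko against MRL/+ the log2 fold change was 0.77 ± 0.24 (SE), which did not pass (limma, adjusted p = 0.117). In MRL/lpr against MRL/+, the contrast behind the choice of the family, it was 0.53 ± 0.24 and is given as a description. Both probes of Ppp2ca were higher in Fn14ko than in MRL/+, probe a by 0.85 ± 0.28 without overlap (limma, adjusted p = 0.124) and probe b by 0.30 ± 0.16 (0.253).

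Ppp2cb, the beta form, is nearly identical in protein sequence to the alpha form. Mean signals of the MRL/lpr and Fn14ko mice were 12.8 ± 0.987 and 12.9 ± 2.08, and that of the MRL/+ mice 10.5 ± 2.38 (SD, n = 4). The mice overlapped in every pair of groups, and its log2 difference of MRL/lpr to Fn14ko was 0.00 ± 0.21 (adjusted p = 0.996).

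The scaffold subunit Ppp2r1a went the other way. This alpha form of the A subunit, a stack of HEAT repeats that holds the catalytic and regulatory subunits, had signals of 12.9, 10.3, 11.6 and 9.19 in MRL/lpr, 15.4, 18.9, 18.3 and 13.6 in Fn14ko, and 19.4, 16.2, 26.3 and 23.6 in MRL/+. Every MRL/lpr mouse was below every mouse of the other groups, and Fn14ko overlapped MRL/+. The log2 fold change of MRL/lpr to Fn14ko was -0.59 ± 0.21, which did not pass (limma, adjusted p = 0.153). The exact permutation test of 4 against 4 mice gave its smallest possible two-sided p, 0.0286. Fn14ko against MRL/+ gave -0.36 ± 0.21 (adjusted p = 0.303), a sign that turned to 0.37 when dim spots were kept in the scaling. Both differences from Fn14ko passed with plain background subtraction, Agilent's processed signal and loess (adjusted p of 0.00815 to 0.0241 for MRL/lpr and 0.0208 to 0.0464 for MRL/+). Against MRL/+, MRL/lpr was lower by a log2 value of -0.94 ± 0.21, a description like that of Ppp2ca. Its call in that contrast was lost without MRL/+ replicate 4 (-0.90) and without both MRL/+ mice read in Cy5 (-0.95). Cy3 mice only (-0.88) and dim spots kept (-0.35) also lost it.

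**Figure D1:**
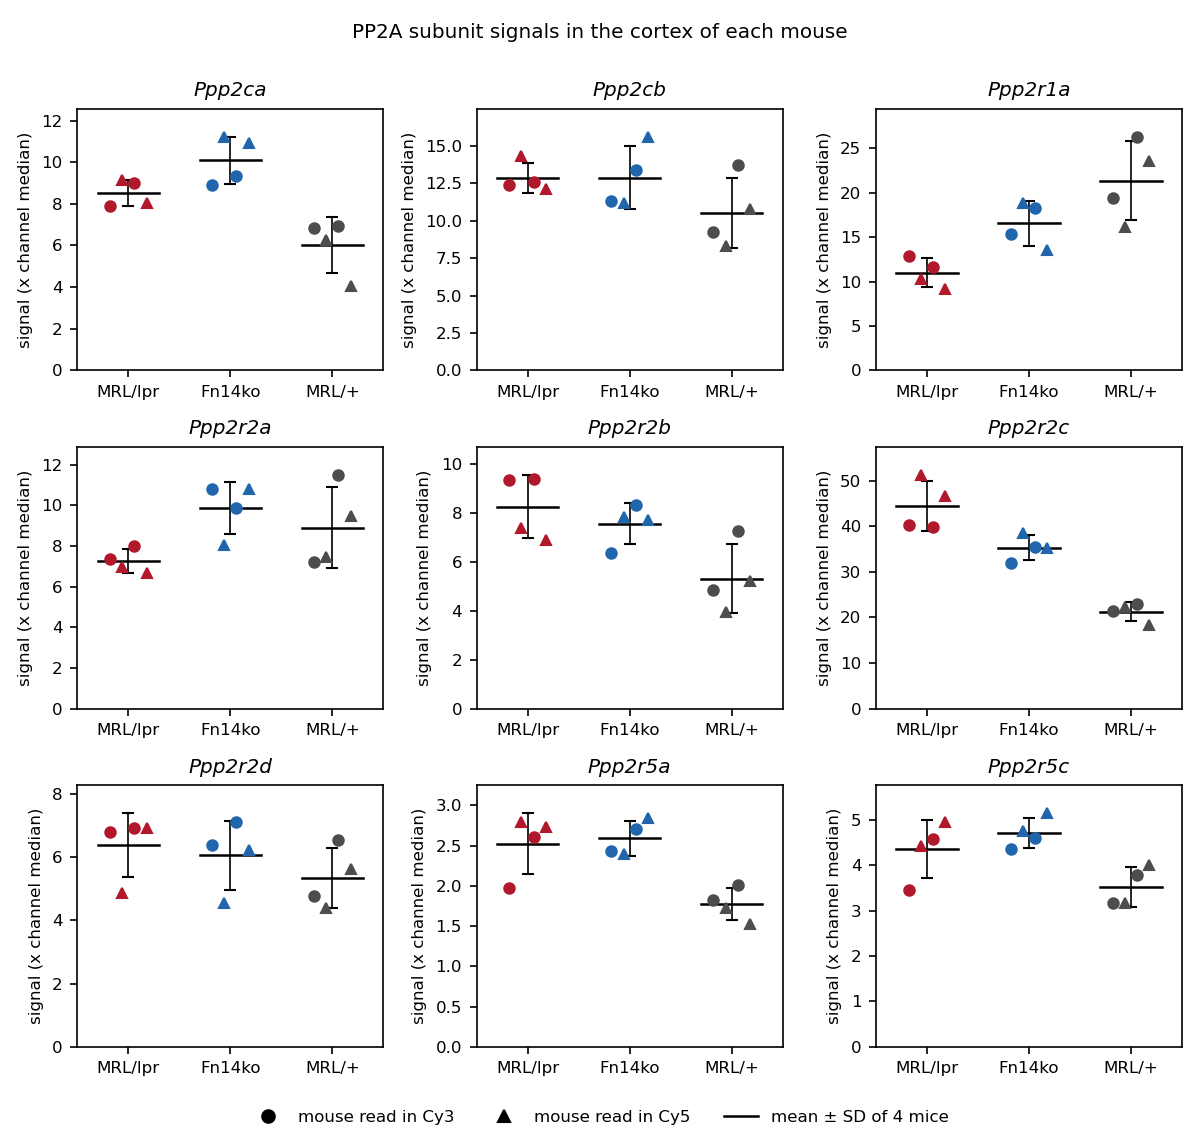
Signal of the 9 quantified PP2A subunit genes in each mouse, on the vertical axis as a multiple of the channel's median spot and by group on the horizontal axis; circles are mice read in Cy3, triangles mice read in Cy5, and bars the mean ± SD of 4 mice. Ppp2r2c falls into 3 separate ranges (39.9 to 51.2, 31.9 to 38.5 and 18.3 to 23), and MRL/lpr is lowest for Ppp2r1a.

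The other scaffold gene, Ppp2r1b, encodes the beta form of the A subunit, and both of its probes fell to the filter. Probe b, for transcript variant 1, had foreground signals of 6.56, 3.59, 10.6 and 4 times the local background in the MRL/lpr mice, 1.03, 1.34, 1.02 and 1.47 times in Fn14ko, and 1.25, 3, 1.16 and 2.63 times in MRL/+. It was well above background in 4 of 4 MRL/lpr mice and in 0 of 4 mice of each other group. The MRL/+ values of 3 and 2.63 were both from the Cy5 channels with the raised background. As multiples of the channel median the groups overlapped, at 0.155, 0.268, 0.233 and 0.293 in MRL/lpr against 0.233, 0.173, 0.0422 and 0.0616 in Fn14ko, and the median local background was 21 and 23 in the MRL/lpr Cy3 channels against 30.5 to 33.5 in the other Cy3 channels. The Fn14ko mean was 0.135 channel medians after each value was raised to the lowest signal well above background on its channel. Against it the MRL/lpr mean of 0.231 was 1.71-fold. Since the mice overlapped and the Fn14ko spots were dim, this fold is a description and no guaranteed minimum. In the fit of single probes with no filter on dim spots, this difference was not past the threshold (limma, adjusted p = 0.507). Against MRL/+ no fold can be given, since the MRL/+ mean raised in the same way, 0.39, exceeded the MRL/lpr mean.

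Probe a of Ppp2r1b, for variant 2, was well above background in 1, 2 and 2 mice of MRL/lpr, Fn14ko and MRL/+. Its foreground signals were 1.66 to 3.69, 2.36 to 3.15 and 2.29 to 2.81 times background in the same order, with no group set apart.

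**Figure D2:**
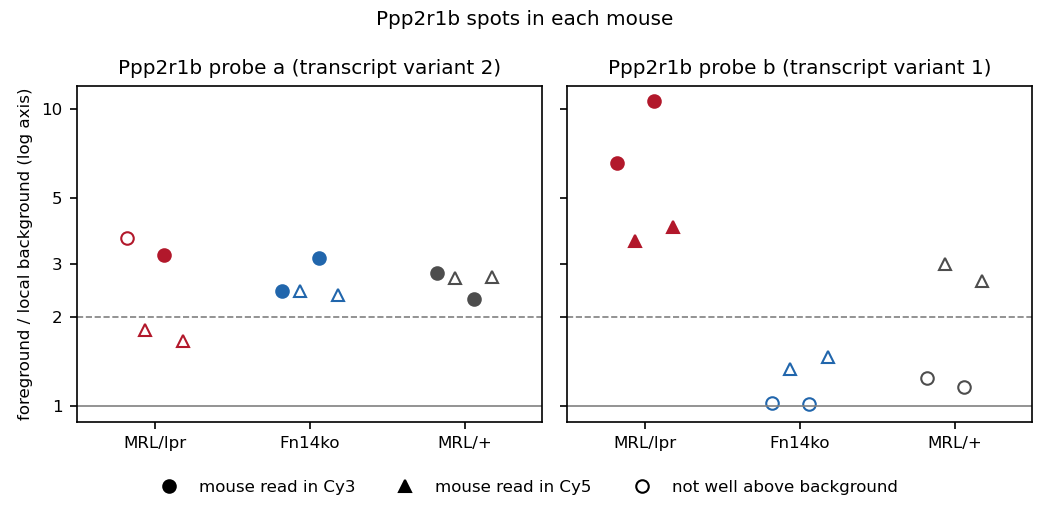
Foreground over local background of the 2 Ppp2r1b spots in each mouse on a logarithmic vertical axis, by group; circles are Cy3, triangles Cy5, open symbols spots not called well above background, and the dashed line marks the 2-fold filter. For probe b, the 4 MRL/lpr mice sit between 3.59 and 10.6 and are all filled, and the 8 other mice are all open at 3 or below.

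Among the regulatory B55 subunits, Ppp2r2c had the pattern by which the family was chosen. Ppp2r2c, encoding B55 gamma, had signals of 40.2, 51.2, 39.9 and 46.6 in MRL/lpr, 31.9, 38.5, 35.5 and 35.2 in Fn14ko, and 21.3, 22.3, 23 and 18.3 in MRL/+. The 3 groups did not overlap in any pair, with MRL/lpr highest and MRL/+ lowest. It was the 1 member of 9 with such separation, which 1.22% of all genes had, and since it holds the contrast behind the choice, nothing is read from it. The fold of MRL/lpr to MRL/+ was 2.09, a log2 value of 1.06 ± 0.18. These are the values behind the choice, and they are given as a description. In Fn14ko against MRL/+, which shares the MRL/+ mice with that contrast, the log2 fold change was 0.74 ± 0.18, a fold of 1.67. The adjusted limma p was 0.0716, short of the threshold of 0.05. It passed in 8 of 27 alternatives, namely plain subtraction (0.0234), loess (0.0314), only spots well above background (0.0326), no dye term (0.0464), no array block (0.0135), the replicate block (0.0231), and without Fn14ko replicate 1 (0.0438) or MRL/+ replicate 3 (0.0467). MRL/lpr against Fn14ko, which shares the MRL/lpr mice, gave 0.33 ± 0.18 (adjusted p = 0.364). Both comparisons reuse mice whose Ppp2r2c signals chose the family, so these p-values are not independent of the choice.

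The direction of Ppp2r2c did not turn in any of 27 alternatives of processing and of mice left out. These arrays chose the gene by that direction in MRL/lpr against MRL/+, so its stability there is a description and no support. The call in that contrast was lost with Agilent's processed signal, with dim spots kept and with Cy3 mice only. The log2 fold change of Ppp2r2c ran from 0.41 to 1.66 for MRL/lpr against MRL/+, from 0.07 to 1.46 for Fn14ko against MRL/+, and from 0.20 to 0.38 for MRL/lpr against Fn14ko. The lowest values of the first 2 came with Agilent's processed signal and the highest with dim spots kept. Without the MRL/+ mice read in Cy5, MRL/lpr against MRL/+ gave 0.89 and Fn14ko against MRL/+ 0.57. An antisense gene, Ppp2r2cos, has a probe of its own on the minus strand at chr5:37264835-37264894, and it was well above background in 0 of 12 mice.

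**Figure D3:**
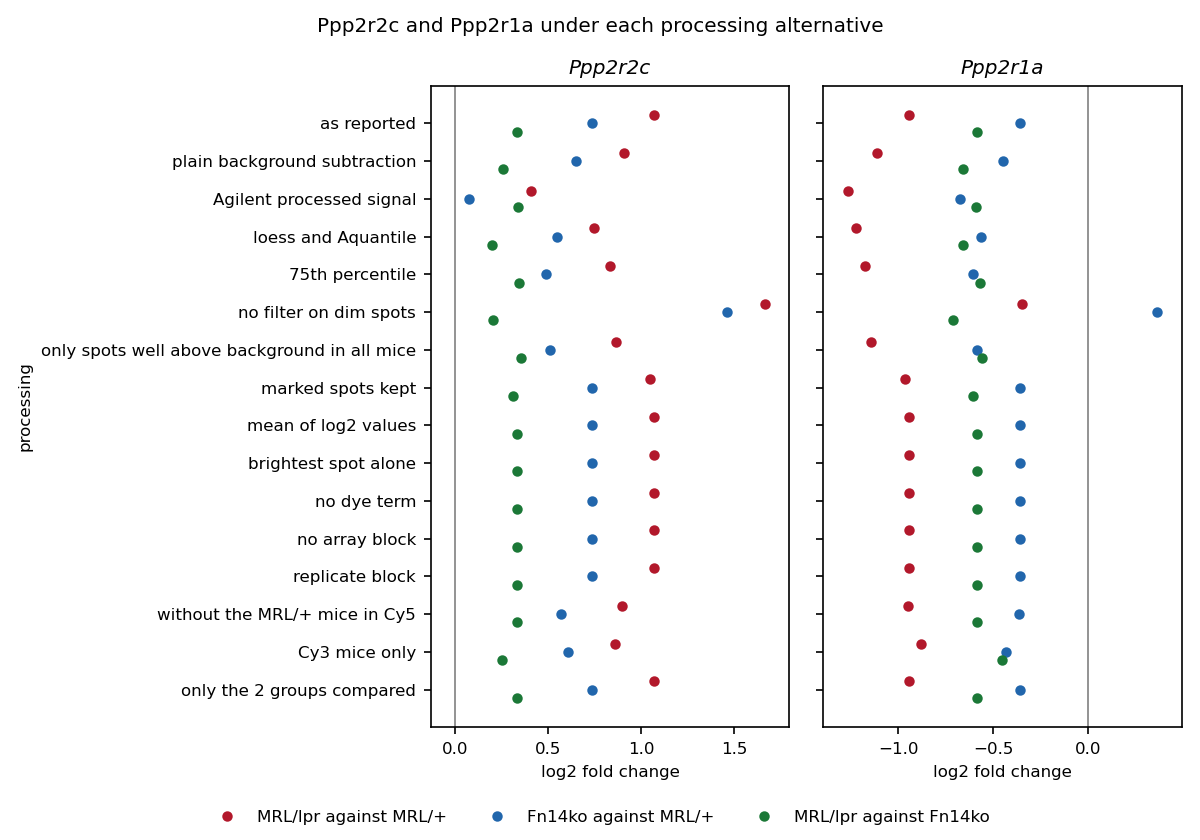
Log2 fold changes of Ppp2r2c (left) and Ppp2r1a (right) on the horizontal axis under each processing alternative on the vertical axis, with 1 point per pair of groups. Every point of Ppp2r2c lies above 0, and for Ppp2r1a every point but that of Fn14ko against MRL/+ with dim spots kept, at 0.37, lies below 0.

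Of the other B55 genes, Ppp2r2a encodes B55 alpha, the widely expressed form. Its signals were 7.36, 6.99, 8.01 and 6.66 in MRL/lpr, below the 10.8, 8.06, 9.86 and 10.8 of Fn14ko with no overlap, and 7.24, 7.44, 11.5 and 9.48 in MRL/+, which overlapped both. MRL/lpr against Fn14ko gave -0.44 ± 0.20 on the log2 scale (limma, adjusted p = 0.267). Ppp2r2b, encoding B55 beta, ran from 6.92 to 9.41 among MRL/lpr mice, from 6.39 to 8.34 among Fn14ko and from 3.94 to 7.27 among MRL/+. In Fn14ko against MRL/+ it gave 0.54 ± 0.22 (adjusted p = 0.189), and both of its probes were higher there, by 0.57 ± 0.23 and 0.27 ± 0.19. Ppp2r2d, encoding B55 delta, known for its role in mitotic exit, ran from 4.85 to 6.92, 4.53 to 7.1 and 4.4 to 6.52 in MRL/lpr, Fn14ko and MRL/+. These ranges overlapped in every pair.

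The B56 members Ppp2r5a and Ppp2r5c were higher in Fn14ko than in MRL/+ without overlap, but their probes disagreed. The B56 genes Ppp2r5b, Ppp2r5d and Ppp2r5e, which are no members, overlapped there, with log2 values of 0.04, 0.34 and -0.17. Ppp2r5a, encoding B56 alpha, had signals of 1.97, 2.79, 2.61 and 2.73 in MRL/lpr, 2.43, 2.39, 2.71 and 2.84 in Fn14ko, and 1.83, 1.72, 2.01 and 1.53 in MRL/+. Its log2 fold change in Fn14ko against MRL/+ was 0.55 ± 0.19 (limma, adjusted p = 0.149). Probe a gave 0.62 ± 0.22 there, and probe b, 36263 bases away and not well above background in 2 of 4 MRL/+ mice, gave -0.11 ± 0.34.

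Ppp2r5c, encoding B56 gamma, ran from 4.37 to 5.15 in Fn14ko and from 3.16 to 4.01 in MRL/+, a log2 difference of 0.43 ± 0.17 that did not pass (limma, adjusted p = 0.189). Its 3 probes, printed above, went separate ways in that comparison. Probe c had signals of 6.82, 6.7, 6.19 and 6.63 in Fn14ko and 3.9, 3.19, 3.01 and 1.92 in MRL/+, which is 1.18 ± 0.33 on the log2 scale with an adjusted p of 0.0934. Probe a had 0.887, 0.911, 0.892 and 0.751 in Fn14ko and 1.01, 1.44, 1.07 and 1.99 in MRL/+, which is -0.63 ± 0.24 with an adjusted p of 0.164. In neither probe did the groups overlap, although the directions were opposite. Probe b lay between, at 0.14 ± 0.22. The highest MRL/+ values of probe a, 1.44 and 1.99, and the lowest of probe c, 1.92, were from Cy5 channels. The value of the gene is the linear mean of its 3 spots.

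**Figure D4:**
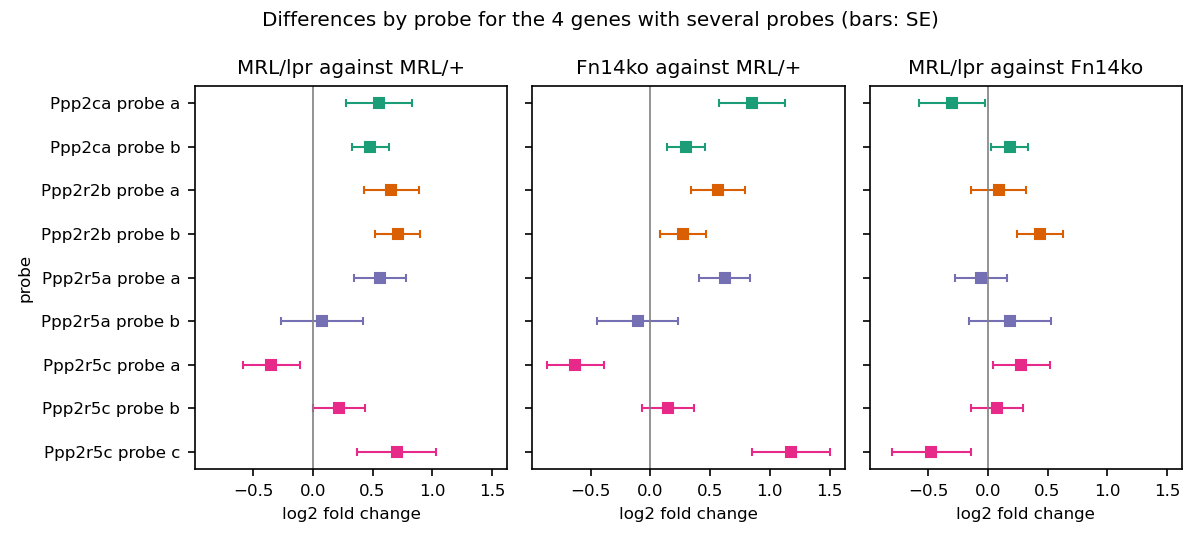
Log2 fold change ± SE of each retained probe of the 4 genes with several, in the 3 comparisons, with positive values for a higher first group. Ppp2r5c probe a lies below 0 and probe c above 0 against MRL/+, at -0.63 and 1.18 for Fn14ko.

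Set side by side in MRL/lpr against MRL/+, 7 of 9 genes were higher and 2 lower, with a median log2 fold change of 0.308 against -0.105 over all genes (0.304 without Ppp2r2c). The calls past an adjusted p of 0.05 were Ppp2r2c and Ppp2r1a, 2 of 9, where 14.4% of all genes were called, and 3 of 9 did not overlap, where 23.9% of all genes did not. Among single probes there were 3 of 14, where 15% of all probes were called. Nothing is read from these counts, since this contrast chose the family.

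In Fn14ko against MRL/+, 8 of 9 were higher, and Ppp2r1a was the 1 that was lower. The median was 0.426 (0.365 without Ppp2r2c) against -0.101 over all genes. None of the 9 was called (0 by limma), where 0.954% of all genes were called, and 0 of 14 probes were called, where 1.09% of all probes were. At an unadjusted p under 0.05 there were 5 members (Ppp2ca, Ppp2r2b, Ppp2r2c, Ppp2r5a and Ppp2r5c), where 21.9% of all genes passed. The groups did not overlap in 4 of 9, where 13.5% of all genes did not. By the methods' t-test 0 members passed after Benjamini-Hochberg adjustment. By the study's own criterion, an unadjusted p of that test under 0.05 together with a cut-off on the ratio that grows with the variability of the gene, 2 passed, where 3.44% of all genes did. These were Ppp2ca, with a ratio of 1.67 over a cut-off of 1.51, and Ppp2r2c, with 1.66 over 1.38. Ppp2r2c, whose MRL/+ signals went into the choice of the family, is in these counts of higher, unadjusted, non-overlapping and criterion genes. Nothing is read from those counts. The direction of Ppp2r2a and Ppp2r2d here was not stable, since both fell below 0 with the 75th percentile, with loess, and with only spots well above background.

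In MRL/lpr against Fn14ko, 4 of 9 were higher and 5 lower, around a median of -0.05, close to the -0.07 of all genes. Calls by limma were 0 of 9 genes and 0 of 14 probes, where 4.57% of all genes and 4.03% of all probes were called. At an unadjusted p under 0.05 there were 2, Ppp2r1a and Ppp2r2a, both lower in MRL/lpr, where 18.6% of all genes passed. Both and Ppp2r2c made the 3 of 9 whose groups did not overlap, where 20.3% of all genes did not. The MRL/lpr signals of Ppp2r2c went into the choice of the family, so nothing is read from that count. The methods' t-test called 0 after adjustment, and 0 met the study's criterion, where 7.87% of all genes did. The median standard error over all genes was 0.252 on the log2 scale, and the number of arrays limits the precision.

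**Figure D5:**
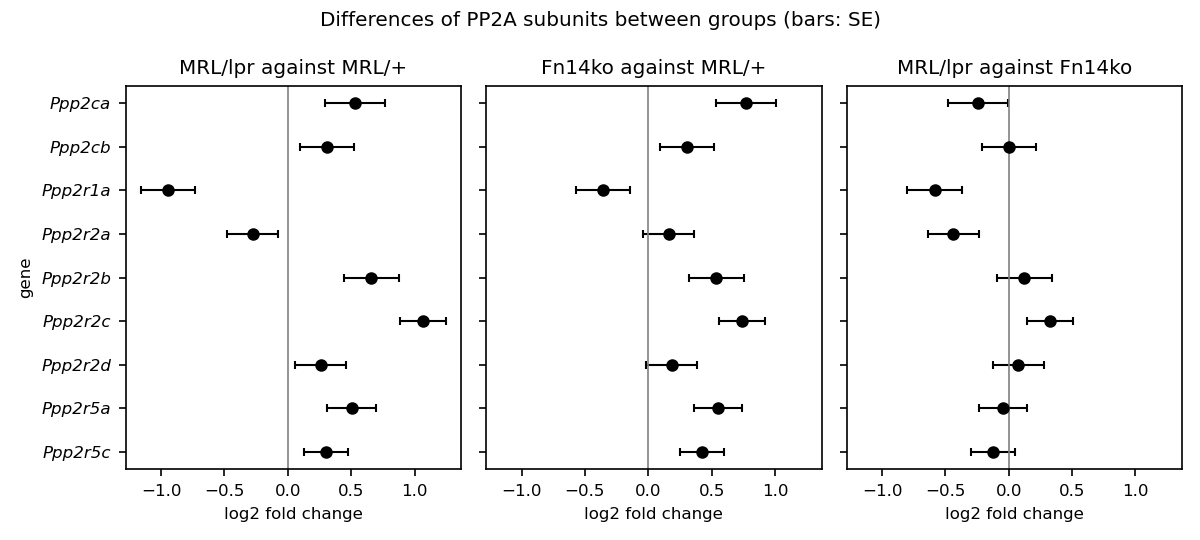
Log2 fold change ± SE (horizontal axis) of the 9 quantified subunit genes in the 3 comparisons, with positive values for a higher first group. Ppp2r2c is highest and Ppp2r1a lowest in MRL/lpr against MRL/+ (1.06 and -0.94), the contrast behind the choice of the family, given as a description.

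The members also varied to unequal degrees among mice of a group. The study's relative expression variability (REV), a pooled and corrected coefficient of variation over the spots of a gene, had a median over the 9 members of 23.3% among MRL/lpr mice, 27.7% among Fn14ko and 39.4% among MRL/+. Over all genes these medians were 31.5%, 36.5% and 52.1%. With 1 mouse left out the member medians reached 43.4% in Fn14ko (without replicate 1) and 60.9% in MRL/+ (without replicate 1), and by the plain coefficient of variation MRL/lpr was above Fn14ko (14.7% and 11.3%), so no order of these groups is read. Ppp2r2c was the steadiest member in MRL/+, at 21.2%, and Ppp2r2d the most variable in MRL/lpr and Fn14ko, at 34.2% and 38.6%. The part of the MRL/+ Cy5 channels that stood apart in these values was not tested.

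The genes whose signals over the 12 mice were most like those of Ppp2r2c, with the mean of each dye removed, were Tmem181a (Pearson r = 0.986), a predicted gene known by its Ensembl transcript (0.985), Tmem250-ps (0.984), Gripap1 (0.982) and Mtcl1 (0.98). Gripap1 encodes a protein of endosomes that binds the AMPA receptor scaffold GRIP1, and Mtcl1 a microtubule crosslinking factor. All 12 points share the group differences and the arrays, so these values are descriptions. The list was not stable, since 2 of the 5 stayed among the first 5 without the removal of the dye means and 0 with Spearman's measure. Of the other members, Ppp2r5a was closest at 0.846, with 4.13% of all genes closer, and Ppp2r1a was farthest at -0.816.

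Of 43 other pathway genes measured, in 4 lists, 5 (11.6%) were called between MRL/lpr and MRL/+, where 14.4% of all genes were. Between Fn14ko and MRL/+ it was 0, beside 0.954% of all genes, and between MRL/lpr and Fn14ko 2 (4.65%), beside 4.57%. The lists were called at about the rate of the array, and the genes below are given one by one. Of 9 further subunits, all were measured and 0 were called in any comparison. They include Strn, the striatin that links PP2A to the STRIPAK kinase complex. Strn had signals of 0.145, 0.174, 0.15 and 0.182 in MRL/lpr and 0.429, 0.599, 0.216 and 0.523 in MRL/+. The difference on the log2 scale, -1.35 ± 0.46, did not pass (limma, adjusted p = 0.0642). Strn was dim. The Ppp2r2cos probe, well above background in no mouse, had 0.0545 to 0.131 in MRL/lpr and 0.0696 to 0.546 in MRL/+. That is the same direction, so no lower Strn is read from these signals. Ppp2r3a, a B'' subunit, gave 1.73 ± 0.91 in MRL/lpr against Fn14ko (limma, adjusted p = 0.339). It rested on MRL/lpr values of 1.6, 4.76, 0.146 and 0.212.

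Of 16 regulators of PP2A assembly and activity, 14 were measured (Mastl and Cip2a were not). In MRL/lpr against MRL/+ 1 was called, where 14.4% of all genes were. Ppme1, the methylesterase that removes the methyl group from the tail of the catalytic subunit, had signals of 11.6, 8.37, 9.02 and 10.4 in MRL/lpr, 6.33, 5.13, 7.35 and 4.79 in Fn14ko, and 6.42, 5.41, 6.16 and 6.49 in MRL/+. Every MRL/lpr mouse was above every other mouse. It rose in MRL/lpr against MRL/+ by a log2 value of 0.68 ± 0.20 (adjusted p = 0.0404), a call kept in 13 of 27 alternatives. It was lost without MRL/lpr replicates 1, 2 or 4, Fn14ko replicate 2, or MRL/+ replicates 3 or 4, with adjusted p of 0.0517 to 0.114, and without both MRL/+ mice read in Cy5 (0.111). Against Fn14ko the value was 0.75 ± 0.20, with an adjusted p of 0.0527.

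Arpp19, which inhibits B55-containing PP2A once phosphorylated, had signals of 1.35, 0.978, 1.19 and 1.21 in MRL/lpr against 0.866, 0.435, 0.602 and 0.392 in Fn14ko, with a log2 fold change of 1.10 ± 0.33 and an adjusted p of 0.0873. Ptpa, an activator of the phosphatase, gave 0.94 ± 0.31 in MRL/lpr against MRL/+ (limma, adjusted p = 0.0575) and 0.72 ± 0.31 in Fn14ko against MRL/+ (0.204). Its lowest MRL/+ values, 19.9 and 12, were those of the Cy5 channels. Both signs turned with Agilent's processed signal, to -0.45 and -0.54, the second past the threshold (adjusted p = 0.0484). Igbp1, the alpha4 protein that binds free catalytic subunits, gave 0.61 ± 0.23 in Fn14ko against MRL/+ (adjusted p = 0.17).

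Of 10 partners of PP2A in the STRIPAK complex, 9 were measured. Strip2 and Stk25 fell in MRL/lpr against MRL/+, where 14.4% of all genes were called. Strip2, a scaffold of the complex, had signals of 1.17, 0.944, 1.09 and 0.885 in MRL/lpr, 3.1, 1.75, 1.62 and 2.96 in Fn14ko, and 2, 2.29, 2.16 and 2.88 in MRL/+. The MRL/lpr mice lay below all others, and the other groups overlapped. The log2 fold change was -1.18 ± 0.30 against MRL/+ (limma, adjusted p = 0.02) and -1.15 ± 0.30 against Fn14ko (adjusted p = 0.0435). The first call was kept in 23 of 27 alternatives and lost without MRL/+ replicate 4 (adjusted p = 0.164) or both MRL/+ mice read in Cy5 (0.225). The second was kept in 14, and was lost on leaving out any MRL/lpr mouse, Fn14ko replicates 1 or 4, or MRL/+ replicates 3 or 4, with adjusted p of 0.0505 to 0.187, and without the MRL/+ mice in Cy5 (0.139).

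Stk25, a kinase of the complex, had signals of 0.696, 0.841, 1.08 and 1.35 in MRL/lpr, overlapping the 0.943, 0.823, 0.906 and 1.4 of Fn14ko, and 1.86, 1.59, 2.21 and 2.2 in MRL/+, above all of them. It fell in MRL/lpr against MRL/+ by a log2 value of -1.02 ± 0.25 (adjusted p = 0.0189), a call lost without MRL/+ replicate 4 (adjusted p = 0.09), and its value in Fn14ko against MRL/+ was -0.97 ± 0.25 (adjusted p = 0.0818). Fgfr1op2 in MRL/lpr against Fn14ko (0.50 ± 0.18) and Cttnbp2nl in Fn14ko against MRL/+ (0.52 ± 0.14) were not past the threshold, with adjusted p of 0.153 and 0.0907.

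Of 12 related phosphatase genes, 11 were measured (Ppp1ca was not). Ppp5c and Ppp4r1 rose in MRL/lpr against MRL/+, where 14.4% of all genes were called. Ppp5c, the catalytic protein phosphatase 5, had signals of 6.34, 9.13, 6.59 and 8.16 in MRL/lpr, 2.45, 4.05, 3.86 and 4.88 in Fn14ko, and 3.36, 4.26, 3.86 and 5 in MRL/+. All MRL/lpr mice were above all others. It rose in MRL/lpr by 0.87 ± 0.19 against MRL/+ (limma, adjusted p = 0.0106) and by 1.01 ± 0.19 against Fn14ko (adjusted p = 0.00851). The first call was kept in 22 of 27 alternatives. It was lost without MRL/+ replicate 4 (adjusted p = 0.054) or both MRL/+ mice in Cy5 (0.0704). Agilent's processed signal (0.163), dim spots kept (0.158) and Cy3 mice only (0.0558) also lost it. The second was kept in 26 and lost with dim spots kept (0.658). Ppp4r1, a regulatory subunit of protein phosphatase 4, had 2.8, 3.67, 2.79 and 2.78 in MRL/lpr and 1.15, 1.51, 1.22 and 1.86 in MRL/+. It rose by 1.08 ± 0.19 (limma, adjusted p = 0.00359), a call kept in 26 of 27 alternatives and lost with dim spots kept (0.158).

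Ppp1cb and Ppp4c, from the same list, had large values that were not past the threshold. Ppp1cb, a catalytic subunit of protein phosphatase 1, gave 1.31 ± 0.49 in MRL/lpr against MRL/+ and 1.44 ± 0.49 in Fn14ko against MRL/+ (adjusted p = 0.0845 and 0.14), and its lowest MRL/+ values, 3.28 and 1.97, were again from the Cy5 channels. Ppp4c, the catalytic subunit of protein phosphatase 4, gave 1.27 ± 0.66 in MRL/lpr against Fn14ko (adjusted p = 0.333), with MRL/lpr values of 3.18, 10, 0.606 and 0.895. The 4 lists had medians between -0.0864 and 0.497 over the comparisons, beside -0.105 to -0.0703 for all genes.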

How the data were processed

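Cortex RNA of 12 mice was read on 6 two-colour Agilent 60-base mouse arrays, 2 mice of the same group per array, with replicates 1 and 3 in Cy3 and 2 and 4 in Cy5. The deposited files used here hold scanner intensities per spot, with local background and flags, that the authors extracted with Agilent Feature Extraction. The authors' values normalized between arrays were not used here. Agilent's processed intensity, already background-subtracted and dye-normalized per the file headers, was used as an alternative.

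From these, background was corrected by normexp (offset 50). Spots marked uneven or outlying in any channel, or under 2 times background in any of 12 mice, were dropped, as in the methods. Signals were divided by the channel median, spots of a gene averaged on the linear scale, and log2 values fitted with limma 3.58.1 (R 4.3.3) with dye as a term and array as a random block (correlation 0.316), and Benjamini-Hochberg adjustment over all genes at 0.05. The fit was tested on simulated data. Labels give mice as replicates, so p-values measure spread among mice of 1 slide per group. The members, lists and naming rule (all members; list genes past the threshold or among the 2 with the largest change of a comparison; the 5 genes most like Ppp2r2c) were chosen with earlier results of these data known. Alternatives covered background, normalization, filters, merging of spots, dye, array block, replicate block, channels and mice left out, and the methods' t-test. The fit of the dim probes without a filter and the median without Ppp2r2c were chosen after seeing the data.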

Additional observations from a re-analysis of the deposited data

Results flagged for a closer look

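Of 27 sets of 4 signals (9 genes in 3 groups), 1 had a mouse far from the others. Ppp2r2d in MRL/lpr replicate 2 was at 4.85, and the other mice of the group were at 6.79 to 6.92. Of 27 sets for probes of genes with several, 2 did. Ppp2r2b probe b in Fn14ko replicate 3 was at 1.59, against 1.18 to 1.22. Ppp2r5c probe a in Fn14ko replicate 4 was at 0.751, against 0.887 to 0.911. Chance gives such a gap in about 1 of 20 sets.

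Outside the quantified genes, the Ppp2r1b spot for transcript variant 1 was well above background in 4 of 4 MRL/lpr mice and in 0 of 4 mice of each other group, although its signals relative to the channel median overlapped between groups.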

How the results depend on the processing

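The number of members called moved with the processing, and the cause was not tested. Calls over all genes moved with the processing as well, as given at the end. The counts of this section stand without the share of all genes at each setting, so nothing about the members is read from them. In MRL/lpr against MRL/+ (2 called) it was 5 with plain background subtraction or no array block, 4 with only spots well above background, 1 with Agilent's processed signal or without the MRL/+ mice in Cy5, and 0 with dim spots kept or Cy3 mice only. The methods' t-test gave 5 unadjusted and 1 after Benjamini-Hochberg. For Fn14ko against MRL/+ (0 called) it was 5 with plain subtraction, 3 with no array block, 2 with loess, and 1 with processed signal, only spots well above background or no dye term. The t-test gave 5 unadjusted and 2 with the cut-off. For MRL/lpr against Fn14ko (0 called) it was 2 with plain subtraction or processed signal, 1 with loess, and 3 by the unadjusted t-test. Single probes (3, 0 and 0 called) gave 7, 7 and 2 with plain subtraction. They gave 1 and 3 with processed signal in the comparisons with Fn14ko, and 2 with only spots well above background and 1 with no dye term in Fn14ko against MRL/+. For MRL/lpr against MRL/+ they gave 0 with dim spots kept or Cy3 mice only and 1 without the MRL/+ mice in Cy5.

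Replicate numbers follow the dye and were not used to pair mice in the main fit. With dye means removed, r of deviations between mice of the same number ran from -0.276 to 0.477. The highest, 0.477 and 0.383, were for replicates 1 and 3 of Fn14ko and MRL/+. With a replicate block, 4 and 2 members and 6 and 4 probes were called in MRL/lpr and Fn14ko against MRL/+, and 0 in MRL/lpr against Fn14ko.

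With each mouse left out in turn, calls ranged from 1 to 4 genes and 1 to 5 probes in MRL/lpr against MRL/+ (lowest without MRL/+ replicate 4), from 0 to 2 and 0 to 3 in Fn14ko against MRL/+ (highest without MRL/+ replicate 3), and stayed at 0 in MRL/lpr against Fn14ko. Median REV ranged from 26.9% to 31%, 23.3% to 43.4% and 43.3% to 60.9% in MRL/lpr, Fn14ko and MRL/+. Its correction grows with fewer mice, so these ranges do not show dependence on single mice. With all mice the plain coefficient of variation was 14.7%, 11.3% and 20.9%. Of the 5 genes most like Ppp2r2c, 2 were kept without removal of the dye means and 0 with Spearman's measure.

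Of 729 member values under alternatives, 31 changed sign, 0 of them past the threshold. Single probes and the genes Ptpa, Strn and Ppp4c are listed below as well and are not in that count. Ptpa in Fn14ko against MRL/+ was past the threshold (limma, adjusted p = 0.0484). For MRL/lpr against MRL/+ the members that changed sign were Ppp2cb with loess (-0.00314), Ppp2r2a with dim spots kept (0.323), Ppp2r2d with processed signal and loess (-0.067 and -0.0399) and Ppp2r5c with processed signal (-0.182). For Fn14ko against MRL/+, Ppp2r2a and Ppp2r2d gave -0.122 and -0.0953 with loess, -0.0877 and -0.0655 with the 75th percentile, and -0.0654 and -0.0432 with only spots well above background. Processed signal gave -0.0167 for Ppp2r5c, -0.447 and -0.544 for Ptpa (MRL/lpr and Fn14ko against MRL/+), -0.0634 for Ppp2r2b probe b and -0.0734 for Ppp2r5c probe b, which was -0.082 with only spots well above background. Dim spots kept gave 0.367 for Ppp2r1a, 0.0112 for Strn, 0.231 for Ppp4c, 0.618 for Ppp2r5a probe b and 0.0962 for Ppp2r5c probe a. Ppp2r5a probe b was 0.0755 with plain subtraction, 0.102 with Cy3 mice only, and -0.207 to 0.128 with a mouse left out. For MRL/lpr against Fn14ko, Ppp2cb gave -0.0651, -0.0262, -0.0599, -0.123 and -0.0142 with plain subtraction, processed signal, loess, dim spots kept and marked spots kept. Ppp2r2d gave -0.119 with processed signal and -0.0506 with dim spots kept, which also gave -0.00488 for Ppp2r2b, -0.0373 for its probe a and -0.0526 for Ppp2r5c probe b. Ppp2r5a was 0.0626 with the mean of log2 values, Ppp2r5c 0.0741 with the brightest spot alone, and Ppp2r5a probe b -0.0312 with Cy3 mice only. With a mouse left out, values ran from -0.0615 to 0.105 for Ppp2cb, -0.0188 to 0.227 for Ppp2r2b, -0.0139 to 0.163 for Ppp2r2d, -0.133 to 0.0845 for Ppp2r5a, -0.0512 to 0.197 for Ppp2r2b probe a, and -0.155 to 0.0846 and -0.0498 to 0.273 for Ppp2r5a probes a and b.

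Over all genes, calls by limma ran from 22 to 5597, 0 to 2837 and 32 to 2849 in the 3 comparisons, against 2492, 165 and 790. The 75th percentile moved the median of all genes to -0.339 and -0.35 against MRL/+, and the share of higher calls from 41.9% to 23.9% for MRL/lpr and from 24.8% to 14.9% for Fn14ko. For Fn14ko that share was 12% with processed signal, 39.5% with loess and 41% with plain subtraction. With dim spots kept, it was 81.8% for MRL/lpr against MRL/+, and the median of all genes was -0.349 for MRL/lpr against Fn14ko. Each group had 4 mice and a slide of its own, which limits every comparison, and Ppp2r1b is limited by its signal over background.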
